A study of Mus musculus with 21 samples.

Results

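The 12 h response of wild-type RAW264.7 cells to lipopolysaccharide (LPS) was read from 4 of the 21 RNA sequencing libraries of the series. RAW264.7 is an established macrophage-like mouse cell line. The 2 treated libraries came from unmodified (WT) cells given 1 µg/mL LPS for 12 h, and their 2 controls from WT cells given the carrier PBS (phosphate-buffered saline) for 12 h. The libraries were chosen by these labels alone, and all 35550 genes listed for them entered the description. 4 libraries of a Vim-KO RAW264.7 line, a knockout of the intermediate filament gene Vim, stood in the same experiment, 2 with PBS and 2 with the same LPS dose for 12 h, and their RNA carries the same extraction date as that of the WT libraries. A separate 24 h experiment, extracted on another date, held WT cells with PBS, with 1 µg/mL LPS, or with that dose of LPS and CTM, named in the labels by this abbreviation alone, at 0.5 mM, 2 libraries each. The CTM group entered the 24 h fit and scaling and no comparison here. Whether Vim-KO is a single clone, and whether the libraries within a group stem from separate cultures, is not given in the sources used here, so that p-values here speak only of the spread between libraries, part or all of which may be technical.

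LPS is an outer membrane lipid of Gram-negative bacteria. On macrophages it is handed by CD14 to the receptor pair TLR4 and MD-2, and the adaptor MyD88 then activates the transcription factor NF-kB and the MAP kinases, which switch on cytokine and chemokine genes. After uptake of the receptor, the adaptor TRIF activates IRF3 and the gene of interferon beta, and secreted interferon beta in turn induces antiviral genes through STAT2 and IRF9. The same cells make negative regulators of these pathways and change their metabolism, in particular glucose, arginine and itaconate use.

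Levels are given as TPM (a share of a library's transcripts corrected for gene length), library by library in label order. Read depth cannot be recovered from TPM and is unknown. Exact 0 values may be failed estimates, since Exosc6, an RNA exosome gene that cells in general use, is listed at 0 in 6 of the 8 libraries of the experiment, so that a gene listed at 0 is not shown to be silent. A log2 change is the difference LPS minus PBS on log2(TPM + 1), which understates the change of low genes, and is given ± its standard error (n = 2 per group). Adjusted p are from limma with Benjamini-Hochberg adjustment over the 11115 genes that averaged 1 TPM or more across the 8 libraries of the experiment, and "rose" or "fell" is said of genes with adjusted p under 0.05. A gene near 0 with PBS could reach that average only through LPS libraries. Counts of risers among the tested genes of a list therefore lean upward. Log2 values of the 2 libraries of a group correlated at 0.988 to 0.990. The 12 macrophage markers were all detected, with a summed level of 20427 and 20102 TPM in the PBS pair and 15629 and 16630 TPM in the LPS pair. Markers of dendritic cells, fibroblasts, epithelium or endothelium, and hepatocytes summed to at most 1.47 TPM in any WT library, and of the 9 B and T cell markers only Lck passed 1 TPM.

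In WT cells 7881 of the 11115 genes (70.9%) passed the threshold. For none of these did the values of the PBS and LPS libraries overlap. The same held for 9657 (86.9%) of all genes tested, called or not, so that it adds little to a call. As the values are listed, 1983 genes (17.8%) rose and 5898 (53.1%) fell, with a median log2 change of -0.35 over all genes tested. Scaling the libraries to each other by the median of their gene ratios moved the changes up by 0.37 on the log2 scale, and 3709 genes then rose and 3525 fell, so that 51.3% of the called genes were higher in place of 25.2%. Directions of small changes thus depend on the scaling, so that counts after scaling follow those of each list. Counts of a list as listed are to be read beside the 17.8% higher and 53.1% lower of all genes. At least 2-fold changes were found for 704 higher (6.33%) and 2008 lower (18.1%) genes, or 1105 and 1173 after scaling. The largest changes were increases: at least 8-fold, 136 genes were higher and 61 lower, and at least 64-fold, 24 were higher and 0 lower. These are bulk measurements, in which fewer cells of a kind and less RNA per cell cannot be told apart.

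**Figure D1:**
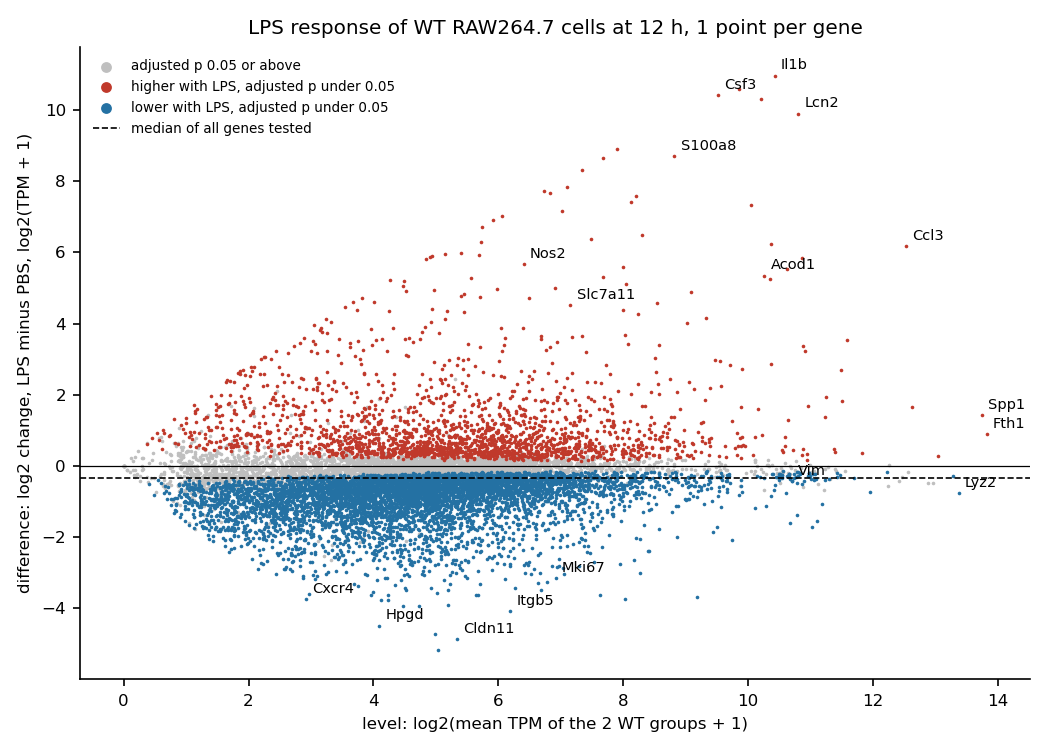
Each point is 1 of the 11115 genes tested. The horizontal axis is the level, log2 of the mean TPM of both WT groups plus 1, and the vertical axis is the log2 change, LPS minus PBS. Red points rose, blue points fell and grey points did not pass the threshold. The dashed line is the median change of -0.35, and the increases reach 10.97 (Il1b) while the decreases end at -5.19.

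The top of the abundance order changed with LPS. Lyz2, the macrophage lysozyme, was the most abundant gene with PBS and fell from 13323 and 13402 TPM with PBS to 7689.7 and 7993 TPM with LPS. Spp1, which encodes the secreted phosphoprotein osteopontin, was the most abundant gene in both LPS libraries and rose from 7424 and 7522 TPM with PBS to 19966 and 20212 TPM with LPS. The ferritin heavy chain gene Fth1 stood next and rose from 10264 and 10032 TPM with PBS to 17817 and 19694 TPM with LPS. The chemokine gene Ccl3 was the third in both LPS libraries. The 8 largest increases, among genes with at least 5 TPM with LPS and leaving out predicted genes, were those of Il1b, Il1a, Csf3, Cxcl2, Lcn2, S100a8, Il6 and Urah.

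Promoters of the lists that follow were read for the sites of the factors named above. The promoters are those of RefSeq (GRCm38.p6), 250 bases before to 50 after a start, and both strands were searched. The NF-kB consensus was found in 12 of the 24 promoters (50%) of the tested genes of NF-kB subunits and inhibitors, in 4 of 10 chemokine promoters (40%) and in 6 of 26 cytokine promoters (23.1%), against 1480 of all 32851 promoters (4.51%) and 549 of the 10728 promoters of the genes tested (5.12%). The interferon response core GAAANNGAA was found in 23 of 42 promoters (54.8%) of antiviral interferon-stimulated genes and in 9 of 11 promoters (81.8%) of guanylate-binding proteins and immunity-related GTPases, against 8.56% of all promoters and 7.24% of those of tested genes. The antioxidant response core TGACNNNGC was found in 8 of 24 promoters of NRF2 targets (33.3%) and in 4 of 29 of the proteasome (13.8%), against 12.4% of all and 14.3% of those of tested genes, so that the proteasome share is near the background. TGATGNAAT, the amino acid response element, was found in 2 of 29 promoters of the ATF4 list, against 0.965% of all and 0.475% of those of tested genes. The sterol response element TCACNCCAC was found in 1 of 19 promoters of cholesterol biosynthesis, against 1.24% of all and 1.13% of those of tested genes. An E2F site, TTTGGCGC, was found in 5 of 23 S phase promoters (21.7%) and in 0 of 21 G2 and M phase promoters, against 0.514% of all and 1.02% of those of tested genes. Not every tested gene had a promoter here. Promoters were at hand for 10 of 15 chemokine, 22 of 29 cytokine and 34 of 45 antiviral genes. Some genes have more than 1: the 24 promoters of NF-kB subunits and inhibitors belong to 16 of the 20 genes tested, and 10 of these 16 held a match. Matches of these motifs can overlap each other, and a match describes the letters only.

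The 250 bases before the start are shown for 6 genes from the NF-kB, interferon and S phase groups. They run 5′ to 3′ on the strand of the gene, with the matches in capitals. The 6 were picked by hand and all hold a match, so that they do not represent their groups. Most cytokine and S phase promoters held none. Nfkbia lies at chr12:55492648-55492897 on the minus strand, with the NF-kB match beginning 29 bases before the start. Il6 lies at chr5:30012864-30013113 on the plus strand, with its match at 44 bases. Cxcl2 lies at chr5:90903649-90903898 on the plus strand, with overlapping matches at 97 and 96 bases. Ifit1 lies at chr19:34640639-34640888 on the plus strand and carries 3 matches to the interferon core, at 109, 103 and 84 bases. Isg15 lies at chr4:156200819-156201068 on the minus strand, with matches at 78, 72 and 66 bases. Mcm6 lies at chr1:128359706-128359955 on the minus strand, with E2F matches at 110 and 47 bases.
Nfkbia: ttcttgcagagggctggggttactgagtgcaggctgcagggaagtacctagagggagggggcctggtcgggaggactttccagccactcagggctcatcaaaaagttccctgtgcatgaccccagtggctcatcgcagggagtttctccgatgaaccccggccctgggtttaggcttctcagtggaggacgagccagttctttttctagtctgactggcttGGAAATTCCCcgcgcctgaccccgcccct
Il6: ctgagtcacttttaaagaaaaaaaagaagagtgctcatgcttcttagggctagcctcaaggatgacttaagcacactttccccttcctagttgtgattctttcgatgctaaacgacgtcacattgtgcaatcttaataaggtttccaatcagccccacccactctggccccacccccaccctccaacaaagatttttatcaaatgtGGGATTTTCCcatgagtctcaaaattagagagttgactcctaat
Cxcl2: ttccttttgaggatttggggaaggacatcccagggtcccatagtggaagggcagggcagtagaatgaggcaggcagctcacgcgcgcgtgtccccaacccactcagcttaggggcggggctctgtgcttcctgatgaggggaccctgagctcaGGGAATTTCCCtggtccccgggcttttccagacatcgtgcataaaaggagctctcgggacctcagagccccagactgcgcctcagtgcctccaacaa
Ifit1: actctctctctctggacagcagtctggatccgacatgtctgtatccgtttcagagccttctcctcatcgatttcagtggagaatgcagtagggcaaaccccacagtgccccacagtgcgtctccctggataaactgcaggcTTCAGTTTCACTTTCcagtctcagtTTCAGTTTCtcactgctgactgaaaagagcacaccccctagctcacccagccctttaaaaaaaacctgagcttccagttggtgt
Isg15: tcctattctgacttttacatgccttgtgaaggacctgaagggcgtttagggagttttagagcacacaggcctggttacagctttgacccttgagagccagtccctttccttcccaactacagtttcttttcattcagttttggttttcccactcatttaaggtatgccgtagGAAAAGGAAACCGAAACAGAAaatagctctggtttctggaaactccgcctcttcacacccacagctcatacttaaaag
Mcm6: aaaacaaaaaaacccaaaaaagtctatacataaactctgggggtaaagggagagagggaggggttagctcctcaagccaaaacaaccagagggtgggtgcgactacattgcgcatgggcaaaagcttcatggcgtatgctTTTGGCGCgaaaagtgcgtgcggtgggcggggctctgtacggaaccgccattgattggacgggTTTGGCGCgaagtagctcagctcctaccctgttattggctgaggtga

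Genes that sense LPS moved in both directions. Cd14, the co-receptor that passes LPS on, rose from 1294 and 1266 TPM with PBS to 4353 and 4651 TPM with LPS (log2 change 1.81 ± 0.08, adjusted p = 7.8e-07). Ly96, which encodes MD-2, rose from 23.4 and 25.2 TPM with PBS to 50.8 and 53 TPM with LPS (1.06 ± 0.10). Tlr4, the signalling receptor itself, fell from 42.2 and 40.1 TPM with PBS to 16.4 and 15.5 TPM with LPS (log2 change -1.31 ± 0.11, adjusted p = 1.5e-05), or -0.94 after scaling. Of the LPS receptor genes, the co-receptors were thus higher in both LPS libraries and the receptor lower. Irak3, an inhibitory kinase relative that blocks MyD88 signalling, rose from 14.1 and 13.4 TPM with PBS to 108 and 119 TPM with LPS (2.96 ± 0.12). Ikbke, the kinase IKK-epsilon that acts below TRIF, rose from 19.4 and 19.6 TPM with PBS to 124 and 107 TPM with LPS (2.50 ± 0.09). Tlr13, the endosomal receptor of bacterial ribosomal RNA, had the lowest change of the list and fell from 75.3 and 70.9 TPM with PBS to 15.7 and 15.8 TPM with LPS (-2.15 ± 0.07). Tlr2, the lipoprotein receptor, fell from 171 and 157 TPM with PBS to 103 and 108 TPM with LPS (-0.63 ± 0.08; -0.25 after scaling). Over the list of LPS receptors and adaptors, 10 of 29 genes tested rose and 13 fell, or 14 and 10 after scaling.

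Subunits and inhibitors of NF-kB mostly rose. Of 20 genes tested, 12 rose and 2 fell (16 and 1 after scaling), with a median log2 change of 0.96 against -0.35 over all genes. Without the second PBS or the second LPS library, 1 member fell. Nfkbia, the inhibitor IkB-alpha that retains NF-kB in the cytoplasm and is itself an NF-kB target, rose from 78.7 and 77.6 TPM with PBS to 644 and 651 TPM with LPS (log2 change 3.03 ± 0.07, adjusted p = 3.5e-08). Nfkbiz, the nuclear relative IkB-zeta needed for a class of late target genes, had the largest change of the list and rose from 5.13 and 6.02 TPM with PBS to 166 and 177 TPM with LPS (4.72 ± 0.10). Bcl3, a nuclear partner of the p50 and p52 subunits, rose from 8.32 and 9.32 TPM with PBS to 60.1 and 80.01 TPM with LPS (2.84 ± 0.15). Tnfaip3, the deubiquitinase A20 that limits the pathway, rose from 1.98 and 2.68 TPM with PBS to 14.6 and 18 TPM with LPS (2.38 ± 0.15). Nfkb2, the precursor of p52, rose from 27.6 and 27.8 TPM with PBS to 117 and 129 TPM with LPS (2.11 ± 0.12). Its partner gene Relb rose from 6.62 and 6.28 TPM with PBS to 15.1 and 15.4 TPM with LPS (1.13 ± 0.11).

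Other negative regulators rose as well, with 17 higher and 3 lower of 21 genes of the list of signal and mRNA decay brakes (18 and 2 after scaling) and a median log2 change of 1.57. Socs3, which blocks cytokine receptor signalling, rose from 14.4 and 13.1 TPM with PBS to 477 and 550.1 TPM with LPS (log2 change 5.12 ± 0.12). Dusp5, a nuclear phosphatase of the MAP kinase ERK, rose from 1.18 and 1.58 TPM with PBS to 87.9 and 95 TPM with LPS (5.29 ± 0.12). Dusp1, which inactivates p38 and JNK, rose from 11.7 and 11.6 TPM with PBS to 56.5 and 63.2 TPM with LPS (2.26 ± 0.10). For none of the 3 did the PBS and LPS libraries overlap, as for 86.9% of all genes tested. Zfp36, which encodes tristetraprolin and marks cytokine mRNAs for decay, rose from 19.1 and 19.6 TPM with PBS to 187 and 223 TPM with LPS (3.33 ± 0.11). Zc3h12a, the cytokine mRNA nuclease regnase-1, rose from 8.21 and 11.2 TPM with PBS to 122 and 132 TPM with LPS (3.59 ± 0.15). Cish, a STAT5 target that damps cytokine signals, rose from 0.326 and 0.0321 TPM with PBS to 10.2 and 12 TPM with LPS (3.37 ± 0.22).

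Immediate early transcription factors were in part higher at 12 h: 13 of 20 rose and 4 fell (14 and 2 after scaling). Ier3, a survival gene induced by NF-kB, rose from 9.6 and 9.37 TPM with PBS to 466 and 537 TPM with LPS (log2 change 5.58 ± 0.15). Fosl1, a Fos family partner of Jun, rose from 7.77 and 9.06 TPM with PBS to 91.2 and 97.8 TPM with LPS (3.35 ± 0.10). The small Maf factor gene Maff rose from 0.633 and 0.74 TPM with PBS to 17.6 and 20.8 TPM with LPS (3.58 ± 0.14). Myc, a growth-promoting transcription factor gene, rose from 1.84 and 1.63 TPM with PBS to 26.5 and 28.7 TPM with LPS (3.39 ± 0.12). Egr1 rose from 7.33 and 6.4 TPM with PBS to 29.1 and 31.2 TPM with LPS (1.99 ± 0.10). Atf3, a repressor of inflammatory genes, rose from 40.9 and 42.9 TPM with PBS to 79.4 and 74.1 TPM with LPS (0.86 ± 0.16). Fos went the other way, from 55.3 and 52.1 TPM with PBS to 28 and 32.7 TPM with LPS (-0.80 ± 0.19, adjusted p = 0.0056), and did not pass the threshold after scaling (-0.43, adjusted p = 0.064). Klf2 was not called, at 6.89 and 6.52 TPM (PBS) and 4.27 and 5.73 TPM (LPS).

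Cytokine genes held the largest changes. Il1b, the precursor of interleukin-1 beta (chromosome 2, 129364570 to 129371139, GRCm38), was near 0 with PBS, at 0.394 and 0.35 TPM, and stood at 2774 and 2725 TPM with LPS. Its log2 change of 10.97 ± 0.07 was the largest of all genes tested (adjusted p = 6.7e-11). The neighbouring Il1a rose from 0.0859 and 0.321 TPM with PBS to 1832 and 1883 TPM with LPS (10.60 ± 0.12). Il1rn, which encodes the receptor antagonist that blocks both, rose from 35.1 and 32.1 TPM with PBS to 2461 and 2776 TPM with LPS (6.24 ± 0.10). All 3 were thus abundant with LPS, and the antagonist alone was already above 30 TPM with PBS.

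Csf3, the granulocyte colony-stimulating factor gene (chromosome 11, 98701263 to 98703629), rose from 0.125 and 0 TPM with PBS to 1400.0 and 1528 TPM with LPS (log2 change 10.43 ± 0.11). Il6, the acute phase cytokine whose promoter is shown above, was listed at 0 in the PBS pair and reached 419 and 394 TPM in the LPS pair (adjusted p = 5.7e-10). Tnf, the early cytokine of the response, rose from 28.4 and 29.7 TPM with PBS to 695 and 738 TPM with LPS (4.58 ± 0.09, adjusted p = 1.3e-08). Unlike Il1b and Il6, Tnf was already present in the PBS libraries. Il10, the anti-inflammatory cytokine, rose from 0.0684 and 0 TPM with PBS to 24.8 and 27.5 TPM with LPS (4.71 ± 0.15). Ifnb1, the interferon beta gene, stayed low and rose from 0.273 and 0 TPM with PBS to 1.65 and 2.1 TPM with LPS (1.35 ± 0.28, adjusted p = 0.003). Lcn2, the siderophore-binding acute phase protein lipocalin-2, rose from 2.32 and 3.15 TPM with PBS to 3319 and 3814 TPM with LPS (9.91 ± 0.15). Il33, the alarmin interleukin-33, rose from 0.0327 and 0 TPM with PBS to 119 and 143 TPM with LPS (7.01 ± 0.13).

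Of 29 cytokine genes tested, 27 rose and 2 fell, also after scaling, and 23 rose and 2 fell at least 2-fold (24 and 1 after scaling), with a median log2 change of 4.05. A further 4 of the 33 members were not tested. Members near 0 with PBS entered through their LPS levels, so that their rise was nearly fixed by entry. The 2 that fell were Igf1, the insulin-like growth factor gene, from 278 and 269 TPM with PBS to 38.5 and 37.1 TPM with LPS (-2.82 ± 0.19), and Il15, from 5.28 and 5.24 TPM with PBS to 1.86 and 1.71 TPM with LPS (-1.17 ± 0.15). Among the risers chosen here after their values were seen, the growth factor gene Csf2 reached 281 and 266 TPM and Lif 217 and 232 TPM from under 1 TPM with PBS. Il12b, the shared chain of interleukins 12 and 23, was listed at 0 with PBS and reached 4.79 and 3.62 TPM. Genes of both pro-inflammatory and anti-inflammatory cytokines were thus among those that rose.

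**Figure D2:**
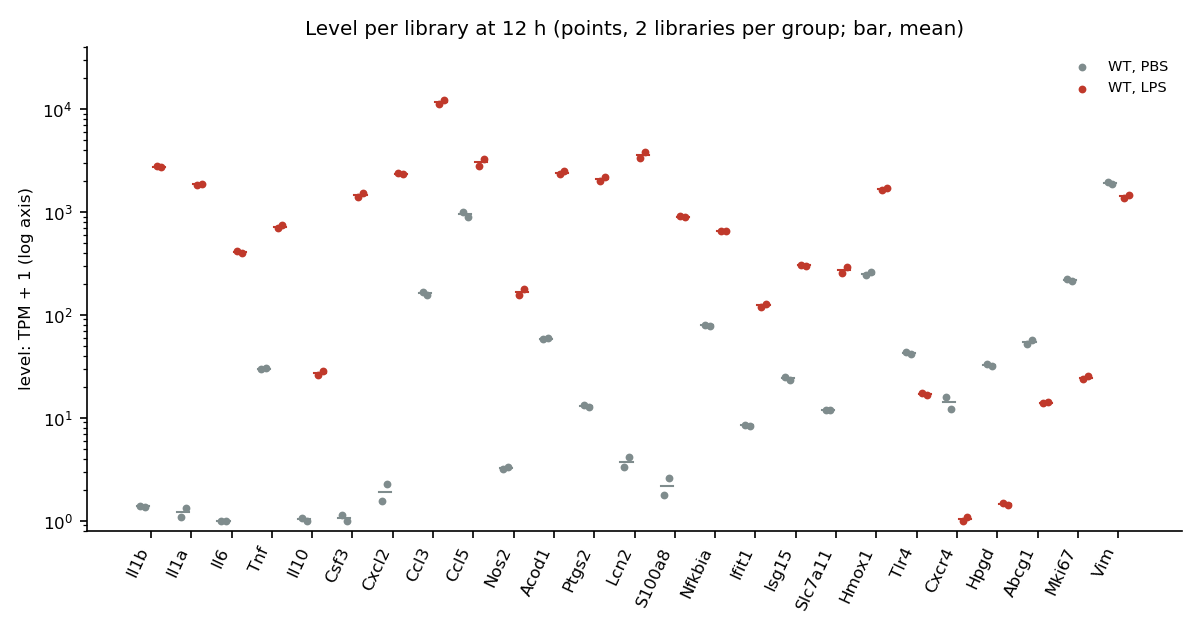
Points are the TPM plus 1 of single libraries on a log axis, grey for PBS and red for LPS, with a bar at the mean of 2 libraries. For all 25 genes shown the 2 groups do not overlap, as for 86.9% of all genes tested. Il1b, Il1a, Il6, Il10, Csf3 and Cxcl2 start near the bottom of the axis with PBS, while Ccl3, Ccl5, Acod1 and Hmox1 start above 50 TPM; Tlr4, Cxcr4, Hpgd, Abcg1, Mki67 and Vim are lower with LPS.

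Chemokine genes mostly rose too, with 12 of 15 higher and 2 lower (13 and 2 after scaling) and a median log2 change of 3.91. A further 7 of the 22 members were not tested, and the same limit of entry holds for those near 0 with PBS. Cxcl2, a neutrophil attractant, rose from 0.538 and 1.26 TPM with PBS to 2382 and 2330.3 TPM with LPS (log2 change 10.30 ± 0.16, adjusted p = 4.7e-09). Its near relative Cxcl3 was listed at 0 in the PBS pair and reached 101 and 109 TPM in the LPS pair. Ccl3, a macrophage inflammatory protein gene, rose from 166 and 155 TPM with PBS to 11147 and 12124 TPM with LPS (6.17 ± 0.13) and was the most abundant chemokine gene in both LPS libraries. Its neighbour on chromosome 11, Ccl4, rose from 68.2 and 63.2 TPM with PBS to 2875 and 3294 TPM with LPS (5.53 ± 0.14). The monocyte attractant gene Ccl2 rose from 64.6 and 60.8 TPM with PBS to 3631 and 3690.0 TPM with LPS (5.85 ± 0.11). Ccl7, its neighbour on chromosome 11, rose from 2 and 2.13 TPM with PBS to 609.8 and 558 TPM with LPS (7.57 ± 0.09). Ccl5, an interferon-responsive chemokine, had the highest level of the list with PBS and rose from 1003 and 883 TPM with PBS to 2807 and 3277 TPM with LPS (1.69 ± 0.11). Cxcl10, another interferon-responsive chemokine, was not called, at 13.4 and 11.4 TPM (PBS) and 14.3 and 19.2 TPM (LPS) (adjusted p = 0.071), and it passed after scaling (0.75, adjusted p = 0.0048).

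Receptors for cytokines and chemokines split, 10 of 28 higher and 13 lower (14 and 9 after scaling). Tnfrsf1b, the inducible TNF receptor, rose from 35.1 and 33.6 TPM with PBS to 984 and 1127 TPM with LPS (log2 change 4.90 ± 0.11). Ccr1, a receptor of Ccl3 and Ccl5, rose from 1.91 and 2.14 TPM with PBS to 22.7 and 24.2 TPM with LPS (3.01 ± 0.14). The atypical receptor gene Ccrl2 rose from 2.62 and 3.73 TPM with PBS to 15.8 and 21.1 TPM with LPS (2.22 ± 0.23). Csf1r, the receptor of the macrophage growth factor, fell from 1407 and 1367 TPM with PBS to 315 and 340.4 TPM with LPS (-2.08 ± 0.08, adjusted p = 3.7e-07). Cxcr4 fell to near 0, from 14.9 and 11.2 TPM with PBS to 0 and 0.0865 TPM with LPS (-3.74 ± 0.17). Surface molecules that act on T cells mostly rose, 11 of 13 costimulators and surface ligands, with 1 lower (12 and 1 after scaling). Cd40, a receptor for T cell help, rose from 3.95 and 2.56 TPM with PBS to 83.8 and 81.5 TPM with LPS (4.32 ± 0.16). Cd80, a ligand of CD28, rose from 18.5 and 21.2 TPM with PBS to 193 and 199 TPM with LPS (3.25 ± 0.08). Cd274, which encodes the inhibitory ligand PD-L1, rose from 3.42 and 2.74 TPM with PBS to 43.4 and 45.4 TPM with LPS (3.48 ± 0.12). Cd86, the partner of Cd80, rose less, from 3.53 and 2.58 TPM with PBS to 8.38 and 9.75 TPM with LPS (1.32 ± 0.25). Icam1, the adhesion ligand, was not called as listed, at 65.6 and 68.1 TPM (PBS) and 73.2 and 79.4 TPM (LPS), and rose after scaling (0.57, adjusted p = 3.2e-04).

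Antiviral interferon-stimulated genes mostly rose, many of them by less than 2-fold. Of 45 tested, 35 rose and 1 fell (44 and 1 after scaling), 19 of them at least 2-fold (27 after scaling), and the median log2 change was 0.82. Ifit1, which binds viral RNA ends and carries the 3 interferon cores shown above, rose from 7.55 and 7.34 TPM with PBS to 118 and 127 TPM with LPS (log2 change 3.87 ± 0.09, adjusted p = 3.2e-08). Isg15, a ubiquitin-like modifier, rose from 24 and 22.1 TPM with PBS to 304 and 297 TPM with LPS (3.65 ± 0.09). Rsad2, the antiviral enzyme viperin, rose from 2.87 and 2.62 TPM with PBS to 46.9 and 53.2 TPM with LPS (3.77 ± 0.10). Oasl1, which represses Irf7 translation, rose from 74.3 and 75.8 TPM with PBS to 269 and 295 TPM with LPS (1.89 ± 0.09). These 4 stood apart in level between the groups, whereas Mx1 was not called, at 6.25 and 7.16 TPM (PBS) and 6.37 and 5.08 TPM (LPS). Oas2, a sensor of double-stranded RNA, was not called as listed, at 62.6 and 65.2 TPM (PBS) and 73.4 and 65.4 TPM (LPS), and rose after scaling (0.50, adjusted p = 0.0034).

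Guanylate-binding proteins and immunity-related GTPases, which attack vacuoles of pathogens, gave 9 higher and 0 lower of 11 (11 and 0 after scaling). Gbp7 rose from 2.05 and 1.97 TPM with PBS to 12 and 14 TPM with LPS (2.21 ± 0.14). Gbp2 rose from 1.38 and 1.72 TPM with PBS to 6.65 and 7.97 TPM with LPS (1.70 ± 0.18). Irgm1 rose from 56.2 and 56.1 TPM with PBS to 100.1 and 110.0 TPM with LPS (0.89 ± 0.11). Gbp2 and its relatives are similar in sequence, and how reads shared by them were divided is not given in the sources used here. The factors that drive interferon genes were mixed: 6 of 20 rose and 7 fell, turning to 12 and 2 after scaling. Stat2 rose from 26.2 and 29.1 TPM with PBS to 49 and 52.9 TPM with LPS (0.86 ± 0.09). Irf8, a macrophage lineage factor, rose from 69.8 and 66.1 TPM with PBS to 104 and 105 TPM with LPS (0.61 ± 0.09). Irf7, the amplifier of interferon genes, went from 693 and 674 TPM with PBS to 536 and 579 TPM with LPS, a log2 change of -0.29 ± 0.07 as listed and 0.092 after scaling, so that its sign depends on the scaling. Irf1 fell from 19 and 22.4 TPM with PBS to 13.6 and 12.6 TPM with LPS (-0.62 ± 0.14) and did not pass after scaling (-0.26, adjusted p = 0.12).

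Of 19 genes of MHC class I antigen presentation and the immunoproteasome, 1 rose and 12 fell (6 and 8 after scaling), with a median log2 change of -0.40 against -0.35 over all genes. The median of the list was -0.01 after scaling. Psmb9, an inducible catalytic subunit of the immunoproteasome, fell from 56.7 and 50.1 TPM with PBS to 13.5 and 14.1 TPM with LPS (-1.87 ± 0.10; -1.50 after scaling). Psmb8, another, fell from 251 and 249 TPM with PBS to 139 and 141 TPM with LPS (-0.83 ± 0.06; -0.45 after scaling). Erap1, the peptide trimming enzyme, fell from 100.2 and 104 TPM with PBS to 31.2 and 44.4 TPM with LPS (-1.43 ± 0.19). The light chain gene B2m stood at 2993 and 2889 TPM (PBS) and 2481 and 2683 TPM (LPS), -0.19 as listed and 0.20 after scaling, a change of sign, and it was not called without either PBS library or the first LPS library (adjusted p = 0.13, 0.06 and 0.14). Tap1, a peptide transporter chain, was not called, at 56.3 and 65.3 TPM (PBS) and 48.7 and 54.1 TPM (LPS).

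Enzymes of nitric oxide, itaconate and arginine use included several strong increases: 11 of 17 genes rose and 4 fell (13 and 3 after scaling). Nos2, the inducible nitric oxide synthase, rose from 2.19 and 2.31 TPM with PBS to 153 and 178 TPM with LPS (log2 change 5.68 ± 0.13, adjusted p = 3.2e-08). Acod1, which makes itaconate, rose from 56.5 and 58.9 TPM with PBS to 2311 and 2482 TPM with LPS (5.35 ± 0.09). Slc7a2, an arginine transporter, rose from 0.502 and 0.438 TPM with PBS to 40.8 and 46 TPM with LPS (4.91 ± 0.15). Arg2, the mitochondrial arginase, rose from 1.36 and 2.11 TPM with PBS to 31.3 and 31.4 TPM with LPS (3.58 ± 0.16). Arg1, the cytosolic arginase, stayed under 1 TPM in every WT library and was not tested. Odc1, the first enzyme of polyamine synthesis from ornithine, rose from 480.2 and 489 TPM with PBS to 5628 and 5711 TPM with LPS (3.55 ± 0.07).

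Prostaglandin and leukotriene genes moved in both directions. Ptgs2, the inducible cyclooxygenase COX-2, rose from 12.3 and 11.8 TPM with PBS to 2015 and 2184 TPM with LPS (log2 change 7.33 ± 0.09, adjusted p = 1.5e-09). Ptges, the synthase that makes prostaglandin E2 from its product, rose from 0.976 and 1.44 TPM with PBS to 19 and 24.1 TPM with LPS (3.35 ± 0.16). Ptgs1, the constitutive cyclooxygenase, fell from 13.3 and 13 TPM with PBS to 1.59 and 1.7 TPM with LPS (-2.42 ± 0.11). Hpgd, which degrades prostaglandins, fell from 32.5 and 30.7 TPM with PBS to 0.479 and 0.421 TPM with LPS (-4.49 ± 0.15, adjusted p = 1.7e-07). Ltc4s, which makes leukotriene C4, fell from 47.2 and 34.3 TPM with PBS to 2.18 and 1.3 TPM with LPS (-3.93 ± 0.19). Alox5, the lipoxygenase that begins leukotriene synthesis, fell from 53 and 56.2 TPM with PBS to 6.75 and 7.35 TPM with LPS (-2.79 ± 0.09). Over the list, 3 of 16 rose and 11 fell (3 and 9 after scaling).

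Genes of the inflammasome and cell death gave 16 higher and 10 lower of 31 (19 and 7 after scaling). Nlrp3, the inflammasome sensor, rose from 53.9 and 53.3 TPM with PBS to 135 and 142 TPM with LPS (1.35 ± 0.09). Casp4, the mouse receptor of cytosolic LPS also called caspase-11, rose from 11.8 and 10.8 TPM with PBS to 38.7 and 42.3 TPM with LPS (1.76 ± 0.10). Pycard, the adaptor ASC that links NLRP3 to caspase-1, was listed at 0 in all 8 libraries of the experiment. Absence of the transcript and a failed estimate cannot be told apart here. Gsdmd, the pore protein of pyroptosis, fell from 116 and 110.5 TPM with PBS to 73.1 and 79.3 TPM with LPS (-0.56 ± 0.08) and did not pass after scaling (-0.18, adjusted p = 0.071). Among survival genes of the BCL2 family, Bcl2l1, which encodes BCL-XL, rose from 57.2 and 57.3 TPM with PBS to 199 and 217 TPM with LPS (1.84 ± 0.08). Bcl2a1a rose from 11.9 and 10.8 TPM with PBS to 87.7 and 83.1 TPM with LPS (2.81 ± 0.15). Bcl2a1a and Bcl2a1b are near-identical copies, so the split between them is uncertain. The death receptor gene Fas rose from 9.43 and 10.1 TPM with PBS to 58.1 and 54.4 TPM with LPS (2.41 ± 0.14).

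Secreted proteases, their inhibitors and coagulation genes gave 10 higher and 3 lower of 15, also after scaling, with a median log2 change of 2.40. Over all genes tested 17.8% rose. A further 11 of the 26 members were not tested. Serpinb2, Timp1, Mmp9 and Mmp13, all under 1 TPM in the WT PBS libraries, entered through their LPS levels, so that the share and the median lean upward. Serpinb2, the plasminogen activator inhibitor PAI-2, was listed at 0 in the PBS pair and reached 206 and 217 TPM in the LPS pair. Timp1, the metalloproteinase inhibitor, rose from 0.357 and 0.253 TPM with PBS to 75.8 and 88.1 TPM with LPS (5.99 ± 0.21). Mmp9, a gelatinase, rose from 0.796 and 0.741 TPM with PBS to 31.7 and 38.8 TPM with LPS (4.35 ± 0.16). Mmp13, a collagenase, was listed at 0 in the PBS pair and reached 21.3 and 25.5 TPM in the LPS pair. Tgm2, which encodes transglutaminase 2, was not called, at 3.33 and 3.25 TPM (PBS) and 3.11 and 3.39 TPM (LPS) (log2 change -0.01 ± 0.15, adjusted p = 0.94). F10, the coagulation factor X gene, was not called either, at 2.41 and 2.09 TPM (PBS) and 2.46 and 2.34 TPM (LPS).

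Phagocytic and scavenger receptors were mixed, 11 higher and 9 lower of 23 (13 and 7 after scaling). Fcgr2b, the inhibitory receptor of IgG, rose from 55.4 and 54.8 TPM with PBS to 284 and 287 TPM with LPS (2.35 ± 0.07). Clec4e, the mycobacterial glycolipid receptor Mincle, rose from 82.4 and 87.1 TPM with PBS to 331 and 322 TPM with LPS (1.93 ± 0.08). Trem2, a lipid receptor of resting macrophages (chromosome 17, 48346401 to 48354147), fell from 487 and 480.2 TPM with PBS to 37.3 and 32.6 TPM with LPS (log2 change -3.75 ± 0.07, adjusted p = 1.3e-08). Gas6, a bridging ligand for uptake of dead cells, fell from 11.7 and 12.6 TPM with PBS to 0.607 and 0.474 TPM with LPS (-3.09 ± 0.13). Clec7a, the beta-glucan receptor dectin-1, fell from 32.1 and 32.3 TPM with PBS to 14.3 and 12.8 TPM with LPS (-1.19 ± 0.14). Mertk and Marco stayed under 1 TPM in every WT library.

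Glucose uptake and glycolysis rose in part, with 18 higher and 7 lower of 29 (23 and 4 after scaling). Slc2a1, the glucose transporter GLUT1, rose from 60.4 and 58.6 TPM with PBS to 297 and 328 TPM with LPS (log2 change 2.37 ± 0.10). Pfkfb3, which makes the activator of phosphofructokinase, rose from 12.7 and 13.7 TPM with PBS to 65.8 and 74.5 TPM with LPS (2.32 ± 0.12). Hif1a, the hypoxia factor, rose from 48.6 and 51.4 TPM with PBS to 70.7 and 73.1 TPM with LPS (0.52 ± 0.07). Ldha, lactate dehydrogenase, was not called as listed, at 1329.6 and 1309 TPM (PBS) and 1301 and 1387 TPM (LPS), and rose after scaling (0.41). Pfkm, the muscle isoform of phosphofructokinase, fell from 12.5 and 14.2 TPM with PBS to 2.94 and 3.81 TPM with LPS (-1.72 ± 0.13).

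Most nuclear respiratory chain and tricarboxylic acid cycle genes fell as listed, where 53.1% of all genes tested fell. Of 32 nuclear genes of oxidative phosphorylation, 0 rose and 30 fell as listed, and 2 rose and 15 fell after scaling. Their median log2 change was -0.58 as listed and -0.20 after scaling, against -0.35 and 0.0064 over all genes. Sdha, the flavoprotein of succinate dehydrogenase, had the largest decrease and fell from 208 and 204 TPM with PBS to 80.2 and 88.7 TPM with LPS (-1.28 ± 0.06; -0.89 after scaling). Sdhb, its iron-sulfur subunit, fell from 199 and 209 TPM with PBS to 109 and 100.5 TPM with LPS (-0.96 ± 0.07; -0.57 after scaling). In the cycle, 1 of 20 rose and 17 fell (2 and 11 after scaling), with a median log2 change of -0.61, or -0.23 after scaling. Idh2, the mitochondrial isocitrate dehydrogenase, fell from 118 and 117 TPM with PBS to 32 and 30.6 TPM with LPS (-1.87 ± 0.06). Mdh1, the cytosolic malate dehydrogenase, fell from 297 and 286 TPM with PBS to 88.8 and 89.1 TPM with LPS (-1.70 ± 0.05). Idh1, the cytosolic isocitrate dehydrogenase, fell from 125 and 131 TPM with PBS to 59.4 and 61 TPM with LPS (-1.08 ± 0.06). These 3 fell after scaling too, with log2 changes of -1.50, -1.32 and -0.70. None of the 13 mitochondrially encoded genes was called: they took 4.50% and 5.03% of the TPM with PBS and 4.83% and 2.45% with LPS, so the LPS libraries differed from each other. Without the first LPS library, 11 of the 13 fell, and without the first PBS library 1 rose.

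Counts for cholesterol biosynthesis depended on the scaling. Here 7 of 23 rose and 7 fell, or 14 and 2 after scaling; without the second PBS library the counts as listed were 4 and 3, and without the first LPS library 4 fell. Hmgcs1, an early enzyme, was not called as listed, at 22.7 and 21.7 TPM (PBS) and 23.2 and 24.6 TPM (LPS), and rose after scaling (0.47). Of 15 targets of the sterol receptor LXR and efflux genes, 2 rose and 11 fell (4 and 6 after scaling). Their median log2 change of -0.43 was near the -0.35 of all genes. Leaving out the second PBS or the second LPS library left 1 riser, and leaving out the first LPS library left 7 that fell. The 2 main efflux transporters went opposite ways. Abca1, which loads lipid-poor apolipoprotein, rose from 1.54 and 0.994 TPM with PBS to 9.81 and 13 TPM with LPS (2.45 ± 0.19). Abcg1, which loads high-density lipoprotein, fell from 50.7 and 56 TPM with PBS to 12.8 and 13.1 TPM with LPS (-1.96 ± 0.09). Cyp27a1, a sterol hydroxylase, fell from 27.6 and 30.2 TPM with PBS to 2.58 and 1.96 TPM with LPS (-3.20 ± 0.14).

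Genes of the amino acid stress response mostly rose, and targets of the oxidant factor NRF2 rose in part. The ATF4 and amino acid response gave 21 higher and 4 lower of 27 (23 and 2 after scaling), with a median log2 change of 1.00. Slc7a11, the cystine importer, rose from 10.8 and 11 TPM with PBS to 255 and 290.2 TPM with LPS (log2 change 4.52 ± 0.11, adjusted p = 4.5e-08). Asns, asparagine synthetase, rose from 54.7 and 50.4 TPM with PBS to 178 and 182 TPM with LPS (1.76 ± 0.09). Ddit3, the stress factor CHOP, rose from 25.4 and 29.2 TPM with PBS to 122 and 119 TPM with LPS (2.11 ± 0.12). Atf4 itself rose from 91.4 and 91.3 TPM with PBS to 224 and 219.7 TPM with LPS (1.27 ± 0.06). NRF2 targets gave 14 higher and 7 lower of 23 (16 and 4 after scaling). At least 2-fold, 8 were higher and 3 lower, down to a log2 change of -1.37, and the members named next are risers. Hmox1, heme oxygenase 1, rose from 242 and 257 TPM with PBS to 1619.7 and 1713 TPM with LPS (2.74 ± 0.07). Srxn1, sulfiredoxin, rose from 42 and 38.6 TPM with PBS to 141 and 158 TPM with LPS (1.86 ± 0.08). Gclm, a subunit of the enzyme of glutathione synthesis, rose from 194 and 204 TPM with PBS to 338 and 352 TPM with LPS (0.79 ± 0.08). Iron and metal genes gave 10 higher and 4 lower of 16 (12 and 2 after scaling, and 2 lower without the first PBS or the first LPS library). The metallothionein gene Mt2 rose from 339.6 and 315 TPM with PBS to 3146 and 3719.7 TPM with LPS (3.38 ± 0.11). Slc11a1, the phagosomal metal exporter, rose from 156 and 143 TPM with PBS to 582 and 641 TPM with LPS (2.02 ± 0.11). Slc40a1, the iron exporter ferroportin, fell from 11.4 and 10.4 TPM with PBS to 4.24 and 3.53 TPM with LPS (-1.28 ± 0.11).

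Folding genes of the endoplasmic reticulum rose, 20 of 25 with 3 lower (22 and 0 after scaling). Herpud1, a part of degradation from the reticulum, rose from 30.2 and 28.4 TPM with PBS to 113 and 121 TPM with LPS (1.96 ± 0.10). Hspa5, the chaperone BiP, rose from 951 and 903 TPM with PBS to 2273 and 2253 TPM with LPS (1.29 ± 0.07). Xbp1, the factor of the unfolded protein response, was not called, at 143 and 140.4 TPM (PBS) and 134 and 136 TPM (LPS). Constitutive proteasome genes rose nearly throughout, 31 of 33 with 1 lower (32 and 0 after scaling), by a median log2 change of 0.52. Psma6, a subunit of the outer ring, had the largest change and rose from 275 and 273 TPM with PBS to 1033 and 969 TPM with LPS (1.86 ± 0.06). The lid subunit gene Psmd11 rose from 139 and 148 TPM with PBS to 325 and 311 TPM with LPS (1.14 ± 0.07). Psmb5, a catalytic subunit, rose from 130.1 and 115 TPM with PBS to 182 and 197 TPM with LPS (0.63 ± 0.08). Psmb6, another, rose from 274 and 287 TPM with PBS to 503 and 479 TPM with LPS (0.80 ± 0.06). Their immunoproteasome counterparts Psmb8 and Psmb9 fell, as given above. Cytosolic chaperones gave 6 higher and 12 lower of 24 as listed and 16 and 5 after scaling, a turn of the majority; without the second LPS library 3 were higher, and without the first PBS library 7 were lower. Hspa8 rose from 1561 and 1598 TPM with PBS to 2158 and 2243 TPM with LPS (0.48 ± 0.05). Fkbp4, a co-chaperone of HSP90, fell from 239.6 and 242 TPM with PBS to 105 and 111 TPM with LPS (-1.15 ± 0.06).

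In autophagy 6 of 29 rose and 11 fell, turning to 16 and 6 after scaling. Sqstm1, the cargo receptor p62, rose from 267 and 255 TPM with PBS to 1207 and 1301 TPM with LPS (2.26 ± 0.06, adjusted p = 5.4e-08). Tfeb, a factor that drives lysosome genes, fell from 18.5 and 16 TPM with PBS to 4.65 and 4.25 TPM with LPS (-1.74 ± 0.12). Of 34 lysosome genes, 8 rose and 24 fell (9 and 18 after scaling), with a median log2 change of -0.62, or -0.23 after scaling. Man2b1, a mannosidase, fell from 114 and 109 TPM with PBS to 18.4 and 18.5 TPM with LPS (-2.53 ± 0.10). Gpnmb, a membrane protein of lysosomes, fell from 72.6 and 71.8 TPM with PBS to 9.57 and 11 TPM with LPS (-2.70 ± 0.08). Ctss, cathepsin S, fell from 851 and 847 TPM with PBS to 403 and 407 TPM with LPS (-1.07 ± 0.06). Ctsc, cathepsin C, rose from 160.4 and 157 TPM with PBS to 1203 and 1319.7 TPM with LPS (2.98 ± 0.12). Ribosomal protein genes depended on the scaling: of 35, 0 rose and 24 fell as listed, and 9 rose and 0 fell after scaling. Without the first PBS or the second LPS library 15 of them fell as listed.

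Genes of cell division fell throughout the lists. All 25 of 25 G2 and M phase genes fell at least 2-fold, as listed and after scaling, with log2 changes from -3.50 to -1.95 and a median of -2.79 (-2.42 after scaling). Mki67, the proliferation antigen, fell from 219 and 213 TPM with PBS to 22.5 and 24.4 TPM with LPS (log2 change -3.15 ± 0.09, adjusted p = 9.8e-08). Ccnb1, a B cyclin of mitosis, fell from 224 and 203 TPM with PBS to 28.1 and 29.2 TPM with LPS (-2.85 ± 0.07). Ccnb2, the other, fell from 186 and 188 TPM with PBS to 14.9 and 16.4 TPM with LPS (-3.50 ± 0.09). Plk1, a mitotic kinase, fell from 130.1 and 116 TPM with PBS to 12.5 and 12.9 TPM with LPS (-3.18 ± 0.08). All 26 of 26 S phase genes fell as well, 22 at least 2-fold as listed and 15 after scaling, with a median log2 change of -1.46. Tk1, thymidine kinase, fell from 179 and 182 TPM with PBS to 18.4 and 17 TPM with LPS (-3.28 ± 0.15). Mcm6, a subunit of the replicative helicase whose promoter with 2 E2F sites is shown above, fell from 207 and 204 TPM with PBS to 46.2 and 48.9 TPM with LPS (-2.09 ± 0.06). Ccne2, the cyclin that opens S phase, fell less, from 33.9 and 44.2 TPM with PBS to 18.4 and 19.9 TPM with LPS (-0.98 ± 0.13; -0.61 after scaling).

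Among G1 cyclins and MYC growth genes 4 of 20 rose and 14 fell (6 and 9 after scaling). Their median log2 change was -0.53, or -0.15 after scaling, against -0.35 over all genes as listed. Ccnd1, cyclin D1, fell from 296 and 301 TPM with PBS to 121 and 130.4 TPM with LPS (-1.24 ± 0.06). Of 15 GADD45, CEBP and growth arrest genes, 6 rose and 6 fell (7 and 5 after scaling): Gadd45b rose from 6.91 and 8.23 TPM with PBS to 60.3 and 60.7 TPM with LPS (2.85 ± 0.13). Cebpd rose from 8.3 and 9.29 TPM with PBS to 73.8 and 77.3 TPM with LPS (2.97 ± 0.11). Cdkn2c, an inhibitor of CDK4 and CDK6, fell from 37.8 and 39.3 TPM with PBS to 5.99 and 7.03 TPM with LPS (-2.40 ± 0.10). p53 targets gave 8 higher and 10 lower of 22 (12 and 8 after scaling). Gadd45a rose from 2.37 and 3.24 TPM with PBS to 106 and 93.9 TPM with LPS (4.74 ± 0.14). Cdkn1a, which encodes the cell cycle inhibitor p21, rose by less, from 382 and 378 TPM with PBS to 498 and 566 TPM with LPS (0.48 ± 0.07). Mdm2, the p53 ligase, rose from 174 and 183 TPM with PBS to 219.5 and 212 TPM with LPS (0.27 ± 0.06). Sesn1 fell from 35.2 and 36.8 TPM with PBS to 5.11 and 4.48 TPM with LPS (-2.68 ± 0.10).

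Vim, the gene of the intermediate filament vimentin (chromosome 2, 13573927 to 13582826, GRCm38), stood at 1930.1 and 1877 TPM (PBS) and 1375 and 1461 TPM (LPS). Its log2 change was -0.43 ± 0.07 as listed (adjusted p = 7.7e-04) and -0.04 after scaling (adjusted p = 0.67), where it did not pass. In the list of filaments, actin and tubulin 16 of 30 rose and 11 fell (20 and 8 after scaling). Of the cytoplasmic actins, Actb rose from 3117 and 2950.0 TPM with PBS to 9039.8 and 10152 TPM with LPS (1.66 ± 0.10). Actg1, the other, rose from 791 and 751 TPM with PBS to 4728 and 5265 TPM with LPS (2.69 ± 0.11). Marcksl1, an actin-binding substrate of protein kinase C, rose from 99.1 and 101 TPM with PBS to 611 and 654 TPM with LPS (2.65 ± 0.10). Tuba1a, a tubulin, rose from 27.5 and 26 TPM with PBS to 195 and 214 TPM with LPS (2.88 ± 0.09).

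Of the 8 largest increases, 2 belong to none of the functional lists. S100a8, a calcium-binding alarmin best known from neutrophils, rose from 0.761 and 1.62 TPM with PBS to 908 and 892 TPM with LPS (log2 change 8.71 ± 0.21). Among the 8 neutrophil markers, S100a8 made up nearly all of the summed level, which was 0.761 and 1.62 TPM in the PBS pair and 911 and 895 TPM in the LPS pair, and only S100a8 and S100a9 passed 1 TPM. Ly6g, Elane, Ngp and Ltf, other markers of that list, were listed at 0 in all 4 WT libraries, which does not show them to be silent. Urah, a urate pathway enzyme, was listed at 0 in the PBS pair and reached 315 and 326 TPM in the LPS pair. The 8 largest decreases, by the same rule, were those of Ranbp3l, Cldn11, Igfbp4, Hpgd, Itgb5, Fgd2, Ltc4s and Frmd4b. Ranbp3l, a nuclear export factor, fell from 61.5 and 63.5 TPM with PBS to 0.554 and 0.958 TPM with LPS (-5.19 ± 0.13). Cldn11, a tight junction protein gene, fell from 81.9 and 72.7 TPM with PBS to 1.75 and 1.62 TPM with LPS (-4.86 ± 0.10). Igfbp4, a binding protein of insulin-like growth factors, fell from 60.4 and 59.8 TPM with PBS to 0.905 and 1.82 TPM with LPS (-4.72 ± 0.18). Itgb5, an integrin chain, fell from 137 and 136 TPM with PBS to 6.04 and 8.29 TPM with LPS (-4.09 ± 0.12). The 8 genes were all above 30 TPM in each PBS library and under 10 TPM in each LPS library.

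**Figure D3:**
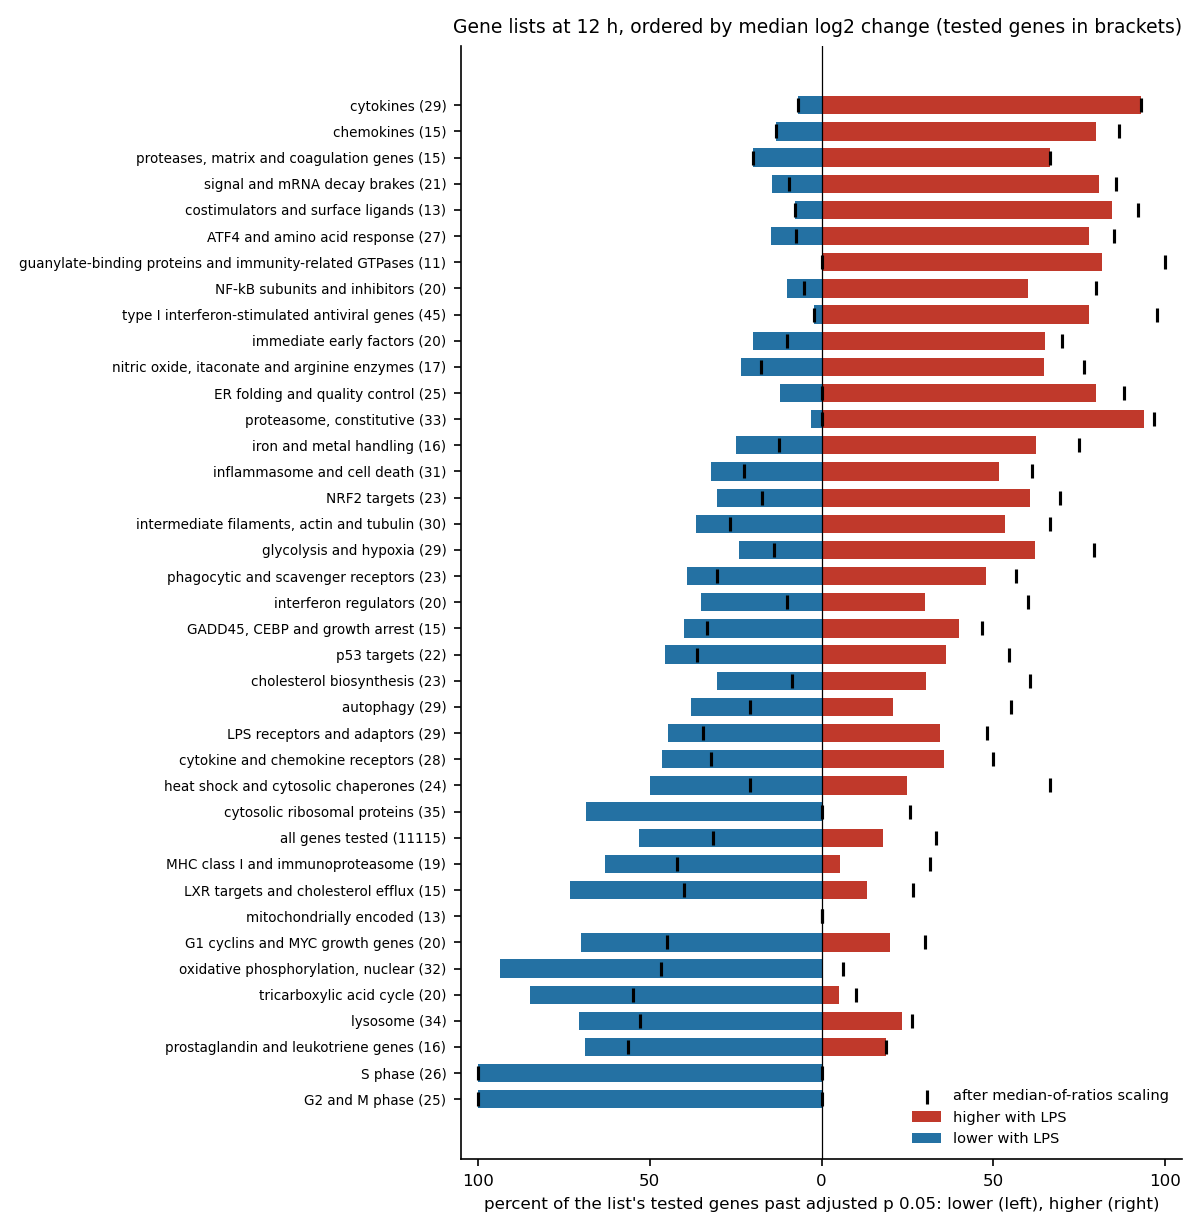
Bars give the percent of each list's tested genes that rose (red, right) or fell (blue, left) as listed, and black ticks the same after median-of-ratios scaling. Lists are ordered by their median log2 change, with the number of genes tested in brackets. Cytokines stand at the top with 27 of 29 higher and G2 and M phase genes at the bottom with all 25 lower, and for cytosolic ribosomal proteins the direction turns with the scaling.

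The WT response was next set beside that of the Vim-KO line, which shares no library with it. In Vim-KO cells Vim stood at 17 and 18.7 TPM (PBS) and 30.8 and 33 TPM (LPS). There 7376 of the 11115 genes (66.4%) were called, 2283 higher (20.5%) and 5093 lower (45.8%). In both lines 6210 genes were called, 78.8% of the WT and 84.2% of the Vim-KO calls. Over all genes, 66.4% were called in Vim-KO and 70.9% in WT cells. Of the 6210, 1506 were higher in both and 4481 lower in both, with 223 in opposite directions. These counts are as listed, without scaling. Across the 11115 genes the log2 changes correlated at r = 0.831, where the points share the experiment and genes are not independent replicates. The difference between the 2 responses, Vim-KO minus WT, passed the threshold for 2292 genes (20.6%), 1518 (13.7%) with a higher and 774 (6.96%) with a lower change in Vim-KO cells, or 1092 and 1274 after scaling. At least 2-fold, the differences numbered 710 (6.39%), 460 higher (4.14%) and 250 lower (2.25%). The total of 2292 moved by over 1.5 times without single libraries: it was 1219 and 1249 without the first or second WT PBS library, 1458 without the first WT LPS library, and 1448 and 1234 without the first or second Vim-KO PBS library. Without the second WT LPS library it was 1641, of which 476 had a lower change.

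By that test, most antiviral genes and p53 targets changed less upward in WT than in Vim-KO cells, and many cytokines and chemokines changed more. Of the 45 antiviral interferon-stimulated genes, 44 had a higher and 0 a lower change in Vim-KO cells (43 and 1 after scaling, and 42 to 44 higher with any 1 library left out), with median log2 changes of 0.82 in WT and 3.10 in Vim-KO cells. Isg15 went from 3.65 and 4.39 to 302 and 304 TPM in Vim-KO cells against 304 and 297 TPM in the WT LPS libraries, and so came from a lower level with PBS to a like level with LPS (difference of log2 changes 2.28 ± 0.12, adjusted p = 2.5e-05). Rtp4, a chaperone of receptors, rose from 60.7 and 66.9 TPM with PBS to 140.4 and 141 TPM with LPS in WT and from 5.22 and 4.66 to 139.6 and 142 TPM in Vim-KO cells (3.45 ± 0.11). Of 22 p53 targets 20 had a higher and 1 a lower change in Vim-KO cells (18 and 1 after scaling, and 15 to 20 higher with any 1 library left out). Cdkn1a rose from 229 and 229 to 1550.1 and 1421 TPM there (2.21 ± 0.10, adjusted p = 1.9e-05). In the MHC class I and immunoproteasome list 15 of 19 had a higher change in Vim-KO cells and 1 a lower (13 and 1 after scaling). With any 1 library other than the second Vim-KO LPS library left out, the count of lower changes was 0.

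Of 29 cytokines, 3 had a higher and 13 a lower change in Vim-KO cells, and of 15 chemokines 3 and 9 (3 and 14, and 3 and 9, after scaling). The lower counts were 11 to 13 and 9 with any 1 library left out. The higher counts fell to 1: for cytokines without the first WT PBS or the first WT LPS library, and for chemokines without the first WT LPS, the first Vim-KO PBS or the first Vim-KO LPS library. Il1b reached 567 and 552 TPM in the Vim-KO LPS libraries against 2774 and 2725 TPM in WT (difference -1.89 ± 0.10, adjusted p = 2.5e-05). Csf3 reached 1381 and 1134 TPM against 1400.0 and 1528 TPM, and no difference in its response was called (-0.14 ± 0.16, adjusted p = 0.57). Il10 was listed at 0 in all 4 Vim-KO libraries, which may be a failed estimate, where WT cells reached 24.8 and 27.5 TPM. Serpinb2 reached only 0.0955 and 0.186 TPM in Vim-KO cells against 206 and 217 TPM in WT, and Cxcl3 0.512 and 0.643 TPM against 101 and 109 TPM. S100a8 reached 13.1 and 12.9 TPM against 908 and 892 TPM. Hpgd, which fell strongly in WT cells, was under 1 TPM in all 4 Vim-KO libraries.

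**Figure D4:**
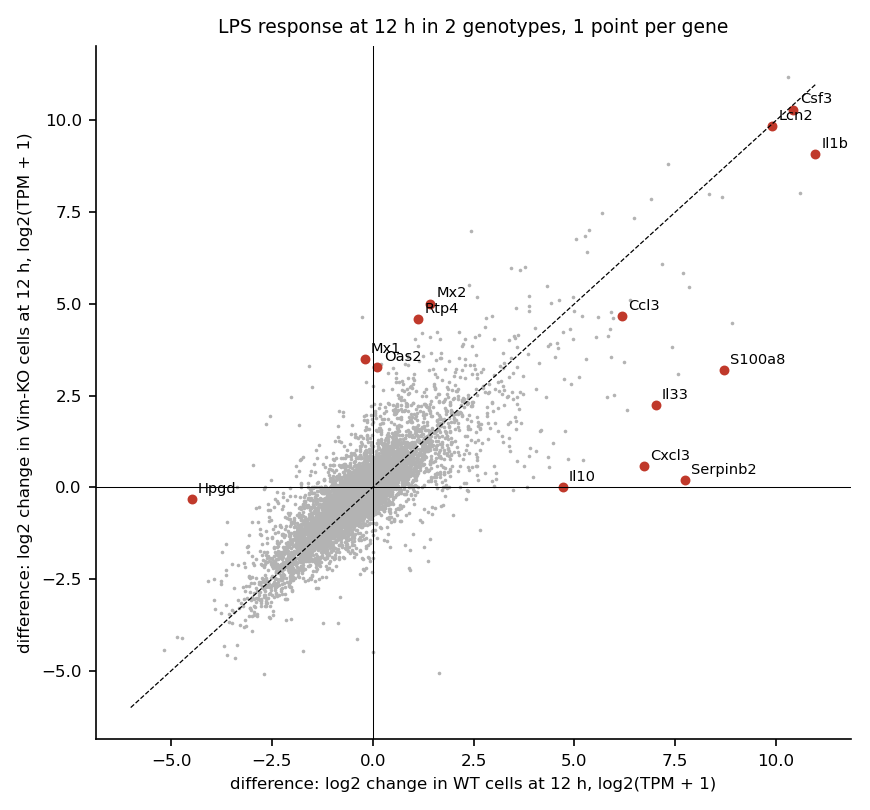
Each point is 1 of the 11115 genes tested, with the log2 change, LPS minus PBS, in WT cells on the horizontal and in Vim-KO cells on the vertical axis; the dashed line marks equal changes. Named points are 10 of the genes with the largest differences and 4 strongly raised genes. Mx1, Mx2, Rtp4 and Oas2 lie above the line, Serpinb2, Cxcl3, S100a8, Il33 and Il10 below it, and Csf3 and Lcn2 near it.

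The 24 h experiment gives the same dose at a later time, in separate libraries, so values are set side by side with no test between the times. At 24 h 7277 of 11030 genes (66%) were called, 2300 (20.9%) higher and 4977 (45.1%) lower, or 3486 and 3369 after median-of-ratios scaling of those libraries. Of the 10797 genes tested at both times, 5569 were called at both, 72.1% of the 12 h and 77.6% of the 24 h calls among them, 1135 higher at both and 3680 lower at both. A further 278 were higher at 12 h and lower at 24 h, and 476 the reverse. With at least 2-fold changes at both times these numbers were 434, 723, 11 and 37. The shares of 72.1% and 77.6% stand beside 66% of all genes called at 24 h and 70.9% called at 12 h, and so are little above them. Counts over both times are as listed, without scaling. Across the genes the log2 changes correlated at r = 0.670, where the points share the cell line and the treatment and genes are not independent replicates.

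Il1b was high at both times and went from 1.8 and 2.87 TPM to 968 and 986 TPM at 24 h (8.21 ± 0.15). Time and experiment cannot be told apart in what follows. Mean PBS levels of some genes differed between the experiments: B2m stood at 2941 TPM at 12 h and 1052 TPM at 24 h, and Ccl5 at 943 and 20.8 TPM. Others were alike, such as Atp5a1 at 727 and 717 TPM. Several lists differed in their counts between the times, and counts after scaling of the 24 h libraries follow in brackets. Of 33 constitutive proteasome genes 8 were higher and 14 lower at 24 h (17 and 4), where 12 h had 31 and 1. Folding genes of the endoplasmic reticulum were 5 higher and 17 lower of 25 at 24 h (8 and 13), against 20 and 3 at 12 h. Lysosome genes were 20 higher and 9 lower of 36 (25 and 6), against 8 and 24. In the MHC class I and immunoproteasome list 14 were higher and 1 lower at 24 h (17 and 0), against 1 and 12, and p53 targets were 19 and 3 (19 and 3), against 8 and 10. Cholesterol biosynthesis had 1 higher and 16 lower at 24 h (1 and 11), against 7 and 7, and of the mitochondrially encoded genes 12 of 13 fell at 24 h (12 after scaling).

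The genes called in opposite directions with the largest changes at both times were Cxcr4, Bhlhe41, Ier2, Gpr84, Dusp6 and Dcxr. Cxcr4, the receptor of Cxcl12, fell from 14.9 and 11.2 TPM with PBS to 0 and 0.0865 TPM with LPS at 12 h and rose from 2.8 and 4.58 to 31.6 and 36.1 TPM at 24 h (2.92 ± 0.21). Bhlhe41, a clock-linked repressor, fell from 30.2 and 32.7 TPM with PBS to 4.46 and 7.73 TPM with LPS at 12 h (-2.23 ± 0.20) and rose from 31.5 and 26.5 to 127 and 142 TPM at 24 h (2.18 ± 0.16). Dcxr, a carbonyl reductase, fell from 48.9 and 41.4 TPM with PBS to 11.3 and 15.6 TPM with LPS (-1.69 ± 0.15) and rose from 19.6 and 19.3 to 69.2 and 68.3 TPM (1.77 ± 0.07). The other 3 were higher at 12 h and lower at 24 h. Ier2, an immediate early gene, rose from 29.7 and 29.3 TPM with PBS to 112 and 117 TPM with LPS (1.92 ± 0.08) and fell from 59.6 and 58.3 to 15.4 and 9.3 TPM (-2.21 ± 0.19). Dusp6, a phosphatase of ERK, rose from 25 and 22.6 TPM with PBS to 81.2 and 96.2 TPM with LPS (1.85 ± 0.10) and fell from 36.1 and 38.7 to 14.1 and 7.67 TPM (-1.75 ± 0.23). Gpr84, a fatty acid receptor, rose from 28.1 and 29.4 TPM with PBS to 94.4 and 106 TPM with LPS (1.77 ± 0.11) and fell from 66.7 and 67.4 to 20.9 and 16.7 TPM (-1.79 ± 0.11). Irf7 had a log2 change of -0.29 at 12 h, from a PBS level of 693 and 674 TPM, and of 4.13 at 24 h, from a PBS level of 37.2 and 35.8 TPM to 660.3 and 649 TPM. Vim rose from 419.7 and 442 to 738 and 739 TPM at 24 h (0.78 ± 0.06), against -0.43 at 12 h as listed. Tgm2 rose at 24 h from 15.7 and 21 to 72.2 and 67.4 TPM (1.88 ± 0.13).

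**Figure D5:**
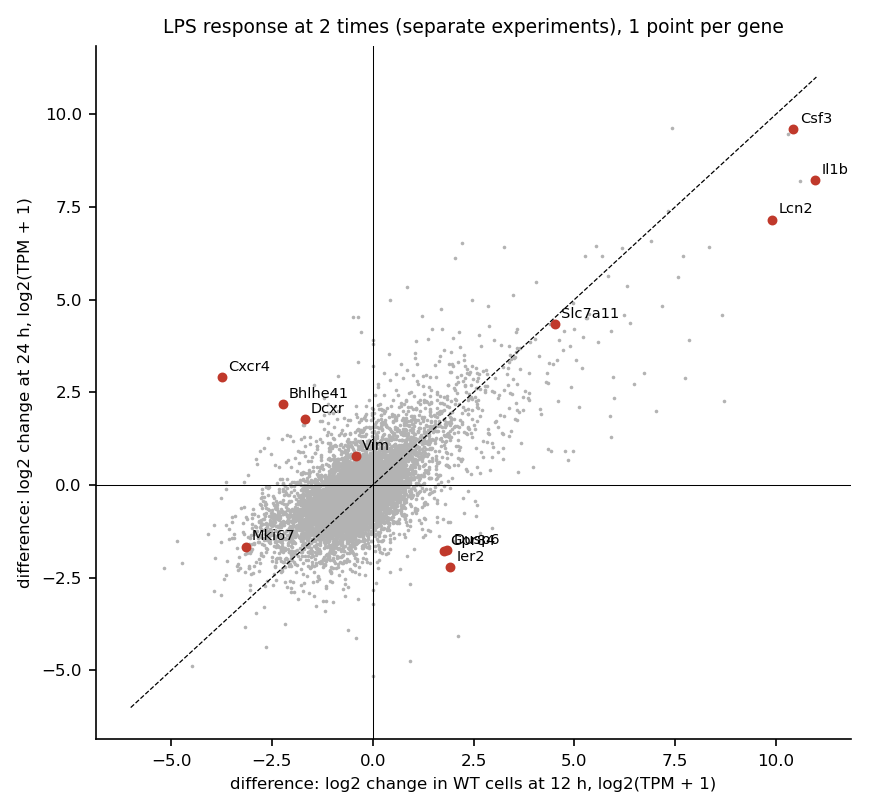
Each point is 1 of the 10797 genes tested at both times, with the log2 change, LPS minus PBS, at 12 h on the horizontal and at 24 h on the vertical axis; the dashed line marks equal changes. Il1b, Csf3, Lcn2 and Slc7a11 lie high at both times and Mki67 low at both. Cxcr4, Bhlhe41 and Dcxr lie in the upper left and Ier2, Gpr84 and Dusp6 in the lower right.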

How the data were processed

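The files hold TPM (transcript abundance on a common total per library) by gene symbol as deposited. The submitters' processing notes name Salmon and the builds mm10 and GRCm38, with no version, and the labels' protocols name a stranded mRNA kit. The annotation is not given in the sources used here. TPM keep no depth.

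Genes averaging 1 TPM or more were fitted on log2(TPM + 1) in limma 3.58.1 (R 4.3.3) with a mean-variance trend, all 4 groups of the 12 h experiment in 1 model, with Benjamini-Hochberg adjustment and a threshold of 0.05. The 24 h table was fitted alone, with its LPS plus CTM group. On simulated data with 200 changed genes the fit recovered 98% of log2 changes of 1 and 100% of changes of 2, with 11 false among 209 calls. The simulated noise was independent and normal, with the spread of the fit itself, and the changed genes had a mean log2 value above 2. It held no shift shared by many genes and no deviation of whole libraries. The run thus checks the code and does not give the error rates of the real data. Alternatives were another pseudocount (0.1), filter (none or 5 TPM), scaling, variance model, replicate block, fold minimum, the WT libraries alone, and each library left out.

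The comparison, the 38 gene lists, the motifs and the naming rule were chosen with earlier results of these data known. The rule names Vim, Tgm2, the 8 highest and 8 lowest changes, key members of each list with up to 4 largest changes, and the 6 largest in each direction for Vim-KO against WT and 6 opposite at 24 h. Genes named beyond it (Lyz2, Spp1, Fth1, Alox5, Igf1, Il15, Csf2, Lif, Il12b and cell type markers) were chosen after their values were seen. Positions are from GENCODE M21 (GRCm38). At 24 h the LPS columns carry other numbers than the labels and were assigned by group. Close paralogs may share reads. Some genes that the rule names are not reported here.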

Additional observations from a re-analysis of the deposited data

Results flagged for a closer look

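The responses of WT and Vim-KO cells to LPS at 12 h differed for 2292 genes by the test of the difference itself (limma, adjusted p under 0.05), and 11 genes named for this difference follow, as Vim-KO minus WT on the log2 scale. Where a group is listed at 0, the size depends on the pseudocount of 1. All 11 differences were called with each of the 8 libraries left out in turn.

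Higher in Vim-KO were the changes of Hpgd (4.17), Mx1 (3.69), Mx2 (3.58), Rtp4 (3.45) and Oas2 (3.17). Hpgd did not rise to a higher level there: it was under 1 TPM in each Vim-KO library and could hardly fall as in WT cells. Rtp4 and Oas2 stood lower in Vim-KO than in WT cells with PBS and near the WT levels with LPS. In Vim-KO cells Mx1 went from 0.331 and 0.167 to 13 and 13.1 TPM, and Mx2 from 0.826 and 0.659 to 54.9 and 54.8 TPM. Oas2 went from 8.86 and 7.16 to 85.4 and 87.1 TPM there. Mx1 and Mx2 are paralogs that may share reads.

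Lower in Vim-KO were the changes of Serpinb2 (-7.54), Cxcl3 (-6.14), S100a8 (-5.52), Il33 (-4.77), Il10 (-4.71) and Exosc6 (-4.50). Il33 reached 3.76 and 3.69 TPM in the Vim-KO LPS libraries and 119 and 143 TPM in the WT ones. Exosc6, a subunit of the RNA exosome, was listed at 0 in all 4 WT libraries and in both Vim-KO LPS libraries, and at 26.8 and 17.3 TPM in the Vim-KO PBS libraries. Cells in general use this gene, so its exact 0 values may be failed estimates.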

How the results depend on the processing

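The 7881 calls in WT cells (1983 higher, 5898 lower) became 2712, 704 and 2008 with a minimum log2 change of 1, and 2278, 1105 and 1173 with that minimum after median-of-ratios scaling, which was chosen after seeing the data. Scaling alone gave 3709 higher and 3525 lower. Without single libraries the ranges were 6800 to 7154 calls, 1675 to 1832 higher and 5076 to 5478 lower; there a lone library is assumed to vary like the other groups. For the difference between the lines (2292 calls, 1518 higher, 774 lower) the minimum gave 710, 460 and 250, scaling gave 1274 lower, and single libraries left out gave 1219 to 2649, 793 to 1840 and 416 to 894. Reversed under scaling were B2m (0.20), Irf7 (0.092) and Sqle (0.062, from -0.31 ± 0.08 as listed). Of the named genes 12 called as listed were not called after scaling, 4 without a filter, and 3 to 6 without single libraries, among them Hspa1b each time. The WT libraries alone gave 8093 calls.

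Same-numbered libraries did not deviate together, with correlations of -0.22 to 0.10 between groups. The lowest was that of the WT and Vim-KO LPS pairs, whose libraries were alike in crossed order. Mitochondrially encoded genes took 4.83% of the TPM in the first WT and 4.60% in the second Vim-KO LPS library. They took 2.45% in the second WT and 2.53% in the first Vim-KO LPS library. What lies behind this order was not tested. A replicate block gave 7677 calls in WT cells (1926 higher, 5751 lower) and 1835 for the difference between the lines. Crossing the numbers of the WT LPS libraries gave 8039 calls.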
